A study of Mus musculus with 6 samples.

Results

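Insulin and insulin-like growth factor (IGF) signalling was examined through 10 genes in cultured mouse microglia, the resident macrophages of the brain. They were taken by gene symbol, as the hormone Igf1, the binding protein Igfbp4, the receptors Insr, Igf1r and Igf2r, the receptor substrates Irs1 and Irs2, the kinase subunit Pik3r1 and the transcription factors Foxo1 and Foxo3. All 10 had a row among the 41079 genes of the deposited tables. RNA was sequenced from microglia of C57Bl/6N pups aged 1 to 3 days, which had been kept in flasks with L-929 conditioned medium and collected by shaking. By the paper's methods the flask medium held fetal bovine serum, and all cells adhered briefly in medium with serum before it was replaced. The 3 control libraries came from cells in serum-free DMEM/F12, and the 3 optimized libraries from cells that also received human TGF-β1, IL-34 and CX3CL1 at 100 ng/mL each, cholesterol and insulin-transferrin-selenium (ITS) on collagen IV. The labels of the libraries name the cytokines alone, and the other additions are those of the paper's methods. The ITS brought insulin into the optimized medium alone, but no library received insulin without the other additions, whose parts in any difference cannot be told apart. The paper describes the libraries of a condition as independent biological replicates.

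Insulin and IGF1 bind the related tyrosine kinase receptors encoded by Insr and Igf1r. The active receptors phosphorylate IRS proteins, which recruit PI3-kinase through its p85 regulatory subunit, and the lipid product activates AKT. AKT phosphorylates FOXO factors and keeps them out of the nucleus, where they would activate genes of metabolism, cell cycle arrest and stress defence. IGF2R has no kinase domain, carries IGF2 and mannose 6-phosphate tagged enzymes to lysosomes, and IGF-binding proteins hold IGFs outside the cell. Microglia are a known source of IGF1 in the developing brain.

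Under optimized conditions Irs2 rose 1.89-fold, while Igfbp4 was 3.24-fold, Igf2r 1.65-fold and Igf1 1.26-fold lower. The other 6 members, among them both receptor kinases Insr and Igf1r, did not pass the test. That made 4 of 10 members with an adjusted p under 0.05 by edgeR's quasi-likelihood test, where 29.8% of the 14618 genes tested passed it, 14.7% higher and 15.2% lower. Of the calls over all genes 49.1% were higher, but limma on log2(FPKM + 1) gave 31.1% and scaling by library size alone 32.3%. Differences are given as log2 fold changes (log2 FC, optimized minus control, ± standard error). Outside the 10, the largest change in the pathway was a 16.0-fold higher level of Igfbp5, so that the most abundant IGF-binding protein transcript changed from Igfbp4 to Igfbp5. In bulk RNA, fewer cells of a type and less RNA per cell cannot be told apart.

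The start regions of Irs2, Igfbp4 and Igfbp5 are shown because Irs2 is the member that rose, Igfbp4 the member with the largest fall, and Igfbp5 the binding protein that took its place as the most abundant. Each is the 250 bases upstream of the canonical start on GRCm39, read 5′ to 3′ on the strand of the gene, with capitals for a TATA box (TATAAA). The regions were chr8:11059500-11059749 on the minus strand for Irs2, chr11:98931814-98932063 on the plus strand for Igfbp4 and chr1:72914044-72914293 on the minus strand for Igfbp5.
Irs2: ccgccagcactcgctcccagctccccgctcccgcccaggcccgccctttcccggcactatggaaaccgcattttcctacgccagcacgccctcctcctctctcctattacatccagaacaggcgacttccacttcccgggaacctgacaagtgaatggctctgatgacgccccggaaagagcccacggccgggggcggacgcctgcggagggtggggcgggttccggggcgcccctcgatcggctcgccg
Igfbp4: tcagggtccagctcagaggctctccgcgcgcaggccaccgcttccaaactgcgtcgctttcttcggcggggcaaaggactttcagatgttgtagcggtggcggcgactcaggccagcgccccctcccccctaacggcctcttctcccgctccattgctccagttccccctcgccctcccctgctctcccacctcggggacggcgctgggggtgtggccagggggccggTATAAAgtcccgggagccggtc
Igfbp5: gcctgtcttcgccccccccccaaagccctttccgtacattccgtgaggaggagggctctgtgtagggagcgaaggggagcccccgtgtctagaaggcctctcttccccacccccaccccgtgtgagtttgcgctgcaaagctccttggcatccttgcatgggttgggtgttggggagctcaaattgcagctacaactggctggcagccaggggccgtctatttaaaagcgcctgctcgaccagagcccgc
The Irs2 region held 25 CpG dinucleotides with a GC content of 68.4%, and that of Igfbp5 held 11 with 62%. In the Igfbp4 region, which held 21 CpG dinucleotides, the TATA box began 22 bases before the start, and 231 of its bases lie in exons of the neighbouring gene Gm72292. A TATA box on either strand was present in 11.7% of 21000 such regions of listed protein-coding genes, and in 1 of the 10 members. The members are all tested genes, and of the 12346 regions of tested genes 7.13% held a TATA box. The FOXO core motif GTAAACA, searched on both strands, was in none of the members' regions, in 2.69% of all regions and in 2.36% of those of tested genes. The insulin response sequence CAAAACAA was in none of the members' regions, in 2.86% of all regions and in 2.62% of those of tested genes. The SMAD palindrome GTCTAGAC was in none of the members' regions, in 0.233% of all regions and in 0.267% of those of tested genes. These letters are absent from these windows, which says nothing about binding elsewhere.

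The 6 libraries held between 20628148 and 27261839 counts. The 8 microglia markers were detected in every library and summed to 6355 to 6448 CPM (counts relative to the TMM-scaled library size) in control and 10773 to 12388 CPM in optimized libraries. The lists of other cell types summed to 2.86 to 4.55 CPM in control and 4.09 to 5.32 CPM in optimized libraries for neurons, 133 to 149 and 161 to 197 CPM for oligodendrocytes, and 11.4 to 13.2 and 14.3 to 17.8 CPM for their precursors. Of the 5 oligodendrocyte markers Mbp was called higher (log2 FC 0.34), and among precursor markers Olig2 had the smallest adjusted p, at 0.076 (log2 FC 0.52). Astrocyte markers summed to 22.2 to 25 CPM in control and 10.8 to 12.4 CPM in optimized libraries, a difference that lay mostly in Aldh1l1 (16.5 and 4.64 CPM), the 1 marker called of 4 tested, while Gfap had 4.18 and 4.68 CPM. Fibroblast and pericyte markers summed to 19.3 to 25.5 CPM in control and 19.9 to 77 CPM in optimized libraries, the highest value being that of optimized replicate 3. Endothelial markers summed to 78.8 to 94.7 CPM in control and 271 to 349 CPM in optimized libraries, nearly all of it Flt1, while Cdh5 had 23 to 55, Pecam1 5 to 20, Tek 0 to 7 and Cldn5 0 to 2 counts per library. One astrocyte marker, Gjb6, had 0 counts in every library. Optimized replicate 1 stood apart by gene length, as the 2630 genes of at least 7000 bases lay at a median of 0.17 above the mean of their condition on the log2 scale in it, against -0.13 in optimized replicate 2. Of the 10 members, 8 have at least 7000 bases by the lengths behind the deposited FPKM values. With a length trend removed from each library, the number of members called was again 4.

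**Figure D1:**
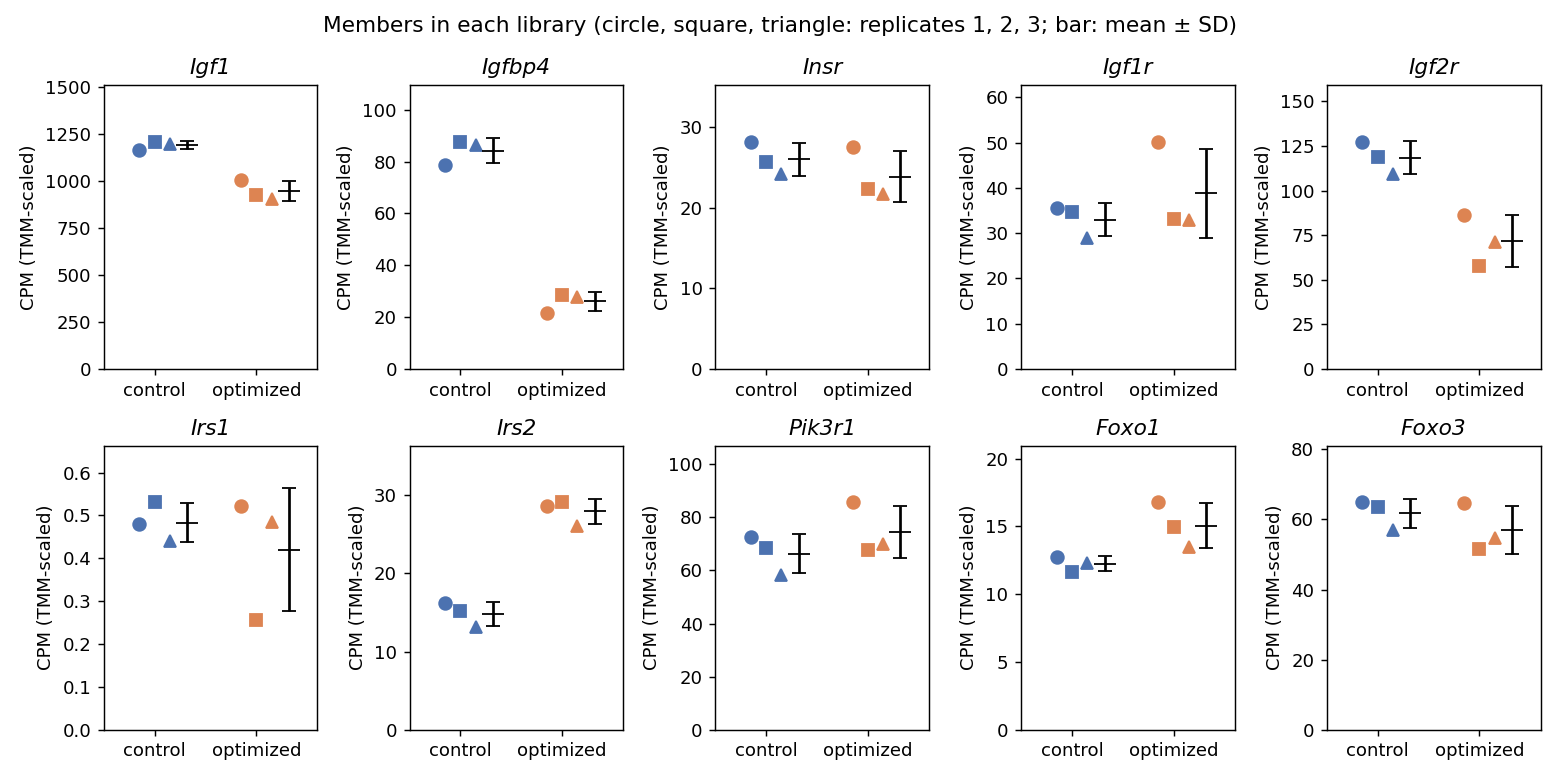
The 10 members in each library, as CPM after TMM scaling on linear axes that start at 0. Circles, squares and triangles are replicates 1, 2 and 3 of control (blue) and optimized (orange) cultures, and the black bars give the mean and SD. For Irs2 all optimized libraries lie above all control libraries (26.1 to 29.1 against 13.1 to 16.2 CPM), and for Igf1, Igfbp4 and Igf2r all lie below. With Foxo1, 5 of 10 members have libraries that do not overlap, against 43.9% of all genes tested (21.4% higher, 22.5% lower).

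Igf1, the hormone itself, was the most highly expressed member in both conditions. It lies on chromosome 10 of GRCm39 from 87693642 to 87772904. The control libraries had 1168, 1210 and 1198 CPM, and the optimized libraries 1007, 924 and 907 CPM. Every optimized library was below every control library, as in 22.5% of all genes tested. Igf1 fell by 20.6% (log2 FC -0.33 ± 0.09, adjusted p = 0.021). It is the least certain of the 4 calls. The adjusted p was 0.057, 0.084 and 0.068 without control replicate 1, 2 or 3, and 0.10 without optimized replicate 3. On the per-length scale of the deposited FPKM values, Igf1 stood at percentile 96.9 of the genes tested, with 141 ± 5.37 FPKM in control and 102 ± 8.99 FPKM in optimized libraries (SD, n = 3 each).

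The other hormones were scarce. Ins1 and Ins2, the mouse insulin genes, had 0 counts in every library, which allows at most 3 counts, or 0.11 to 0.145 CPM, by counting error alone. Igf2, a growth factor of fetal tissue, had 58, 78 and 109 counts in control cultures, then 45, 44 and 206 under optimized conditions. The highest Igf2 value was in the library with the highest fibroblast marker sum, and the part of those cells in it was not tested. The groups overlapped, with a log2 FC of 0.51 ± 0.56 (adjusted p = 0.55).

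Igfbp4, a binding protein that holds IGFs away from their receptors, had the largest change of any member. The gene lies on chromosome 11 from 98932064 to 98945218. Its control libraries had 78.8, 87.6 and 86.3 CPM and its optimized libraries 21.7, 28.7 and 27.6 CPM. The groups were far apart, with 78.8 CPM in the lowest control library and 28.7 CPM in the highest optimized one. The log2 FC was -1.69 ± 0.12 (adjusted p = 3.5e-06), and it was between -1.83 and -1.58 in all alternatives run. The fibroblast and pericyte marker sum given above was not lower in optimized libraries, and the part of such cells in the Igfbp4 level was not tested.

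Igfbp5 went the opposite way. It had 267, 251 and 311 counts in control cultures, then 4186, 3570 and 3750 under optimized conditions, and its mean rose from 11.1 to 177 CPM. The rise was 16.0-fold (standard error 0.13 on the log2 scale, adjusted p = 4.0e-08). The optimized libraries had 198, 152 and 181 CPM. The fibroblast marker sum of optimized replicate 2 was the lowest of its condition, at 19.9 CPM against 19.3 to 25.5 CPM in control. The highest sum, 77 CPM, was in optimized replicate 3, while Igfbp5 was highest in optimized replicate 1. The part of such cells in the Igfbp5 level was not tested. Igfbp3, the main carrier of IGFs in blood, also rose, from 9.42 to 15.3 CPM (log2 FC 0.70 ± 0.17, adjusted p = 0.010). Igfbp2 and Igfbp7 had log2 fold changes of 0.20 and 0.60 with overlapping libraries, Igfbp1 had 0 counts in every library, and Igfbp6 and Igfals had too few counts to test. Of the 5 binding proteins tested, 2 were higher and 1 was lower, or 60% called, against 29.8% of all genes tested. Their median log2 FC was 0.60, against 0.0079 over all genes.

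Expressed as a share of the summed FPKM of Igfbp1 to Igfbp7, which does not depend on scaling between libraries, Igfbp4 made up 69.9, 69.6 and 69.2% in control and 13.1, 18.8 and 15.3% in optimized libraries. Igfbp5 made up 5.74, 4.5 and 5.05% in control and 66.4, 55.2 and 55.6% in optimized libraries. The FPKM ratio of Igfbp5 to Igfbp4 went from 0.073 to 3.78 (geometric means), a 51.8-fold change. The FPKM sum of the family was 37.9 ± 2.23 in control and 47.4 ± 5.49 in optimized libraries (SD, n = 3 each). These shares and this ratio were chosen after the values had been seen and are given without a test.

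**Figure D2:**
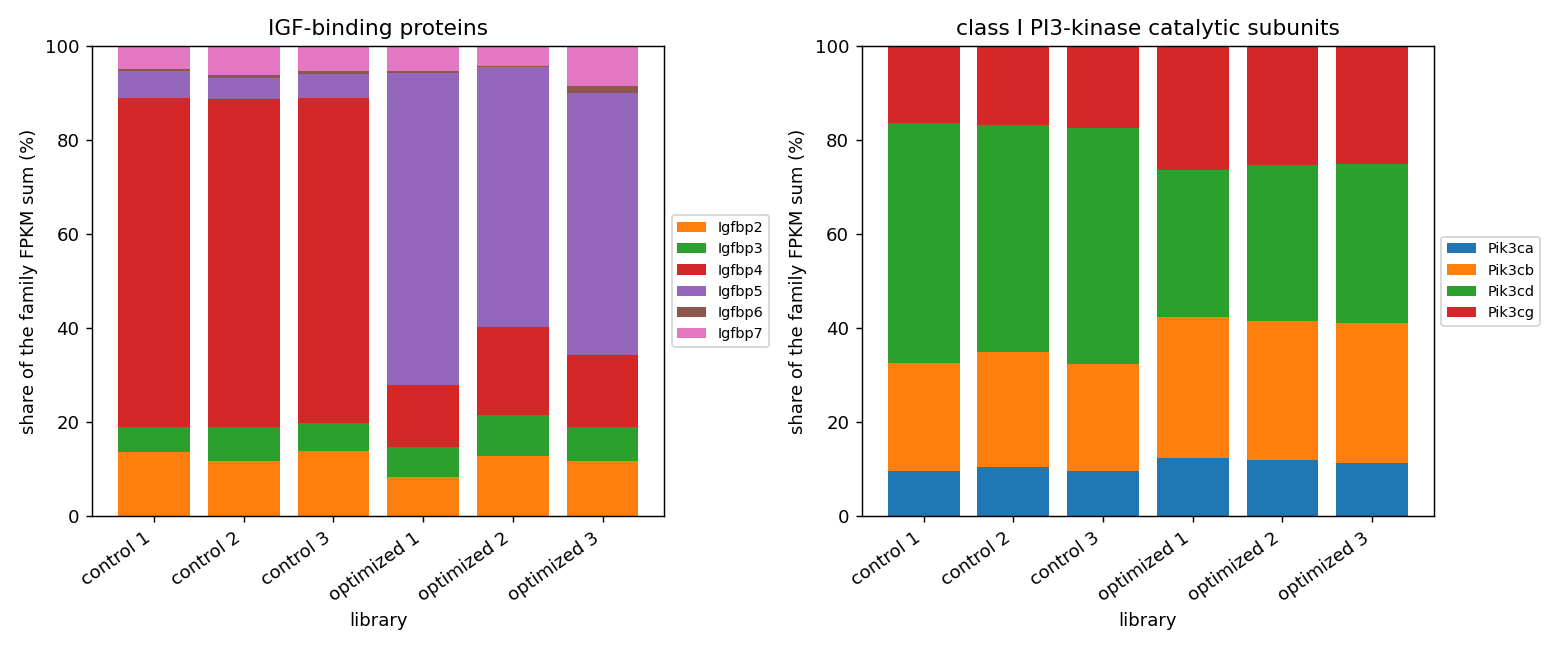
Share of each gene in the summed FPKM of its family (percent, stacked bars from 0 to 100) in each of the 6 libraries, for the IGF-binding proteins (left) and the catalytic subunits of class I PI3-kinase (right). Igfbp4 takes 69.2 to 69.9% in control and 13.1 to 18.8% in optimized libraries, and Pik3cd 48.1 to 51% and 31.3 to 33.9%.

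Among enzymes that cut binding proteins, Adamts1, a secreted metalloprotease, was lower in optimized libraries, at 31.2 ± 2.11 CPM against 74.5 ± 5.75 CPM in control (SD, n = 3 each), which gave a log2 FC of -1.26 ± 0.10 (adjusted p = 7.0e-06). Htra1, a secreted serine protease, had a log2 FC of -0.13 and was not called. The IGFBP proteases Pappa and Pappa2 and the stanniocalcins Stc1 and Stc2 had too few counts to test.

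Of the 3 receptors tested, 1 passed the test (33.3%, against 29.8% of all genes tested). Insr, the insulin receptor on chromosome 8 from 3172061 to 3329647, had 28.2, 25.7 and 24.1 CPM in control and 27.5, 22.4 and 21.7 CPM in optimized libraries. The groups overlapped. The log2 fold change was -0.12 with a 95% interval from -0.39 to 0.14 (adjusted p = 0.49). Igf1r, the IGF1 receptor on chromosome 7 from 67601518 to 67883416, had 35.5, 34.6 and 28.9 CPM in control and 50.2, 33.2 and 33 CPM in optimized libraries. Optimized replicate 1 alone lay above the control range. Its log2 FC of 0.23 (95% interval -0.14 to 0.61, adjusted p = 0.34) was 0.10 with the length trend removed. These receptor transcripts were of similar level per length in control, at 2.81 ± 0.30 FPKM for Insr and 2.59 ± 0.37 FPKM for Igf1r (SD, n = 3 each). The Pgpep1l gene shares 1247 exon bases with Igf1r on the opposite strand and had 0.368 times its mean count, and the strand setting of the counting is not given in the sources used here.

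The count ratio of Insr to Igf1r within a library was 0.794, 0.741 and 0.835 in control and 0.547, 0.673 and 0.658 in optimized libraries. Every optimized ratio was below every control ratio, and the ratio was 0.79 times as high under optimized conditions (two-sided exact permutation p = 0.1, the smallest that 3 libraries against 3 allow, and 0.13 adjusted over the 4 ratios tested).

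Igf2r, which carries IGF2 and lysosomal enzymes, was the receptor that changed. It lies on chromosome 17 from 12901293 to 12988614. Control libraries had 127, 119 and 109 CPM and optimized libraries 86.4, 57.6 and 71 CPM, without overlap. Igf2r fell by 39.5%, with a log2 FC of -0.73 ± 0.14 (adjusted p = 0.0029), which lay between -0.88 and -0.60 in the alternatives. The receptor kinase Insrr, related to the insulin receptor, had 2 counts in 1 library and 0 in the others.

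**Figure D3:**
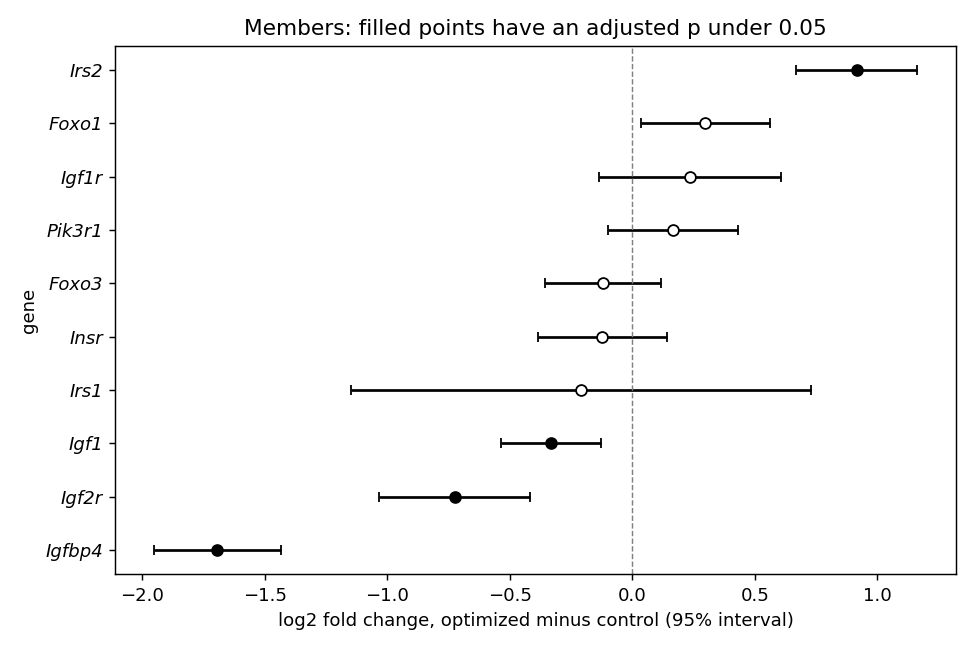
Log2 fold change of each member, optimized minus control, with its 95% interval from edgeR's quasi-likelihood fit. Filled points have an adjusted p under 0.05. Irs2 lies above 0 at 0.92, Igf1, Igf2r and Igfbp4 lie below 0, and the widest interval is that of Irs1, from -1.15 to 0.73.

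Irs2, a substrate that links both receptor kinases to PI3-kinase, rose. The gene lies on chromosome 8 from 11034681 to 11059499. Its control libraries had 16.2, 15.2 and 13.1 CPM and its optimized libraries 28.6, 29.1 and 26.1 CPM. The gap between the groups was larger than the range of either. The log2 FC was 0.92 ± 0.11 (adjusted p = 0.00016). The gene 9530052E02Rik shares 366 exon bases with Irs2 on the opposite strand, at 0.065 times its mean count. Irs1, the related substrate on chromosome 1 from 82210822 to 82269338, was near the limit of detection, with 11, 13 and 12 counts in control cultures, then 11, 6 and 10 under optimized conditions. Its interval ran from -1.15 to 0.73, and a change of Irs1 within these bounds was not detectable at this depth. Per length, Irs2 reached 2.22 ± 0.31 and 3.79 ± 0.21 FPKM (SD, n = 3 each), and Irs1 0.054 ± 0.0068 and 0.043 ± 0.016 FPKM. The count ratio of Irs2 to Irs1 was 33.6, 28.7 and 29.8 in control and 55, 114 and 54 in optimized libraries (exact permutation p = 0.1, 0.13 adjusted over the 4 ratios).

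The adaptors Sh2b2 and Dok2 had larger fold changes than Irs2. Sh2b2, which encodes an adaptor that binds the activated insulin receptor, had 171, 128 and 183 counts in control cultures, then 927, 1214 and 898 under optimized conditions. Its log2 FC was 2.84 ± 0.14 (adjusted p = 5.6e-07). This value is uncertain because Sh2b2 shares 352 exon bases with Gm30408 on the opposite strand, a gene with 1.55 times its mean count that was itself higher (log2 FC 1.09). Dok2, a docking protein of blood cells that dampens signalling to RAS, had 1872, 1745 and 2248 counts in control cultures, then 233, 349 and 229 under optimized conditions. Its log2 FC was -2.67 ± 0.13 (adjusted p = 5.2e-07). Dok1, of the same family, was lower with -0.77, Grb2, the adaptor that brings SOS to receptors and the most abundant of the list, with -0.61, and Shc1, an adaptor to GRB2, was higher with 0.31. Of 12 substrates and adaptors tested, 3 were higher and 3 lower, or 50% called, against 29.8% of all genes tested. Their median was -0.02. Irs3, Irs4 and Grb14 had too few counts to test.

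Pik3r1 encodes p85α, the regulatory subunit that docks PI3-kinase on IRS proteins. It lies on chromosome 13 from 101817071 to 101904725. It had 72.5, 68.3 and 58.1 CPM in control and 85.6, 67.5 and 69.9 CPM in optimized libraries, and the groups overlapped. The log2 fold change was 0.17 with an interval from -0.10 to 0.43 (adjusted p = 0.34). Pik3r2, which encodes p85β, passed the test narrowly at 0.30 (adjusted p = 0.049), and the ratio of Pik3r1 to Pik3r2 overlapped between the conditions (exact permutation p = 0.6).

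The class I PI3-kinase genes moved in both directions. Of the 10 tested, Pik3r1 and Pik3r2 among them, 2 were higher and 4 lower, or 60% called, against 29.8% of all genes tested. The higher ones were Pik3r2 and Pik3cg. Pik3cd, the catalytic p110δ of white blood cells, had 6027, 5660 and 6513 counts in control cultures, then 3085, 3166 and 3069 under optimized conditions (log2 FC -0.77 ± 0.09). Pik3cg, the p110γ subunit that acts below G protein-coupled receptors, was higher at 0.43, while its regulatory partners Pik3r5 and Pik3r6 were lower at -0.60 and -1.18. The adaptor Pik3ap1, the most abundant gene of the list, was lower, going from 626 to 313 CPM. As shares of the summed FPKM of the 4 catalytic subunits, Pik3cd went from 49.8 ± 1.49% to 32.8 ± 1.36%, and Pik3cg from 16.9 ± 0.48% to 25.5 ± 0.68% (SD, n = 3 each). Like those of the binding proteins, these shares were chosen after the values had been seen and are given without a test.

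In the list of phosphatases and other inhibitors of the pathway, Inpp5d and Phlpp1 passed the test of 11 tested, or 18.2%, against 29.8% of all genes tested. Inpp5d encodes SHIP1, which removes a phosphate from the PI3-kinase product, and was higher, going from 258 to 504 CPM (log2 FC 0.97 ± 0.09). Phlpp1, a phosphatase that acts on AKT, had 1180, 1133 and 1387 counts in control cultures, then 388, 388 and 355 under optimized conditions (log2 FC -1.51 ± 0.09). In the list of AKT, TSC and mTOR complexes, 4 of 20 genes tested were called (20%, against the same 29.8%). Akt1, the most abundant of the list, had 324 CPM in both conditions. Deptor, an inhibitor of mTOR, was lower with a log2 FC of -0.92.

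Foxo1 and Foxo3, the transcription factors at the end of the pathway, did not pass the test. Foxo1, on chromosome 3 from 52175757 to 52260642, had 12.8, 11.7 and 12.3 CPM in control and 16.8, 14.9 and 13.4 CPM in optimized libraries. The optimized libraries were all above the control libraries, as in 21.4% of all genes tested. The log2 FC of 0.30 ± 0.12 had an adjusted p of 0.086. Foxo3, on chromosome 10 from 42057837 to 42154007, had 64.8, 63.5 and 57 CPM in control and 64.6, 51.4 and 54.6 CPM in optimized libraries, with overlap. Its log2 fold change was -0.12 (95% interval -0.36 to 0.12, adjusted p = 0.45). The count ratio of Foxo1 to Foxo3 was 0.197, 0.184 and 0.216 in control and 0.26, 0.291 and 0.246 in optimized libraries, without overlap (exact permutation p = 0.1, 0.13 adjusted over the 4 ratios).

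Of 14 FOXO target genes tested, 5 were higher and 3 lower, or 57.1% called, against 29.8% of all genes tested. Their median log2 FC was 0.09. The higher ones were Fbxo32, a ubiquitin ligase of muscle wasting, at 1.79, Gadd45a, a growth arrest and DNA damage gene, at 1.24, Irs2 itself at 0.92, Ccng2, a cyclin of cell cycle arrest, at 0.90, and Bcl2l11, which encodes the death protein BIM, at 0.49. The lower ones were the antioxidant enzymes Sod2 at -1.57 and Cat, the most abundant of the list, at -1.15, and the stress gene Sesn1 at -1.23. Fbxo32 had 226, 213 and 208 counts in control cultures, then 634, 693 and 641 under optimized conditions, and Sod2 had 3741, 4602 and 5516 and then 1159, 1512 and 1377. In both genes the groups were far apart, in opposite directions. Gadd45a shares 990 exon bases with E230016M11Rik on the opposite strand, which had 0.671 times its mean count and a log2 FC of 1.13.

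**Figure D4:**
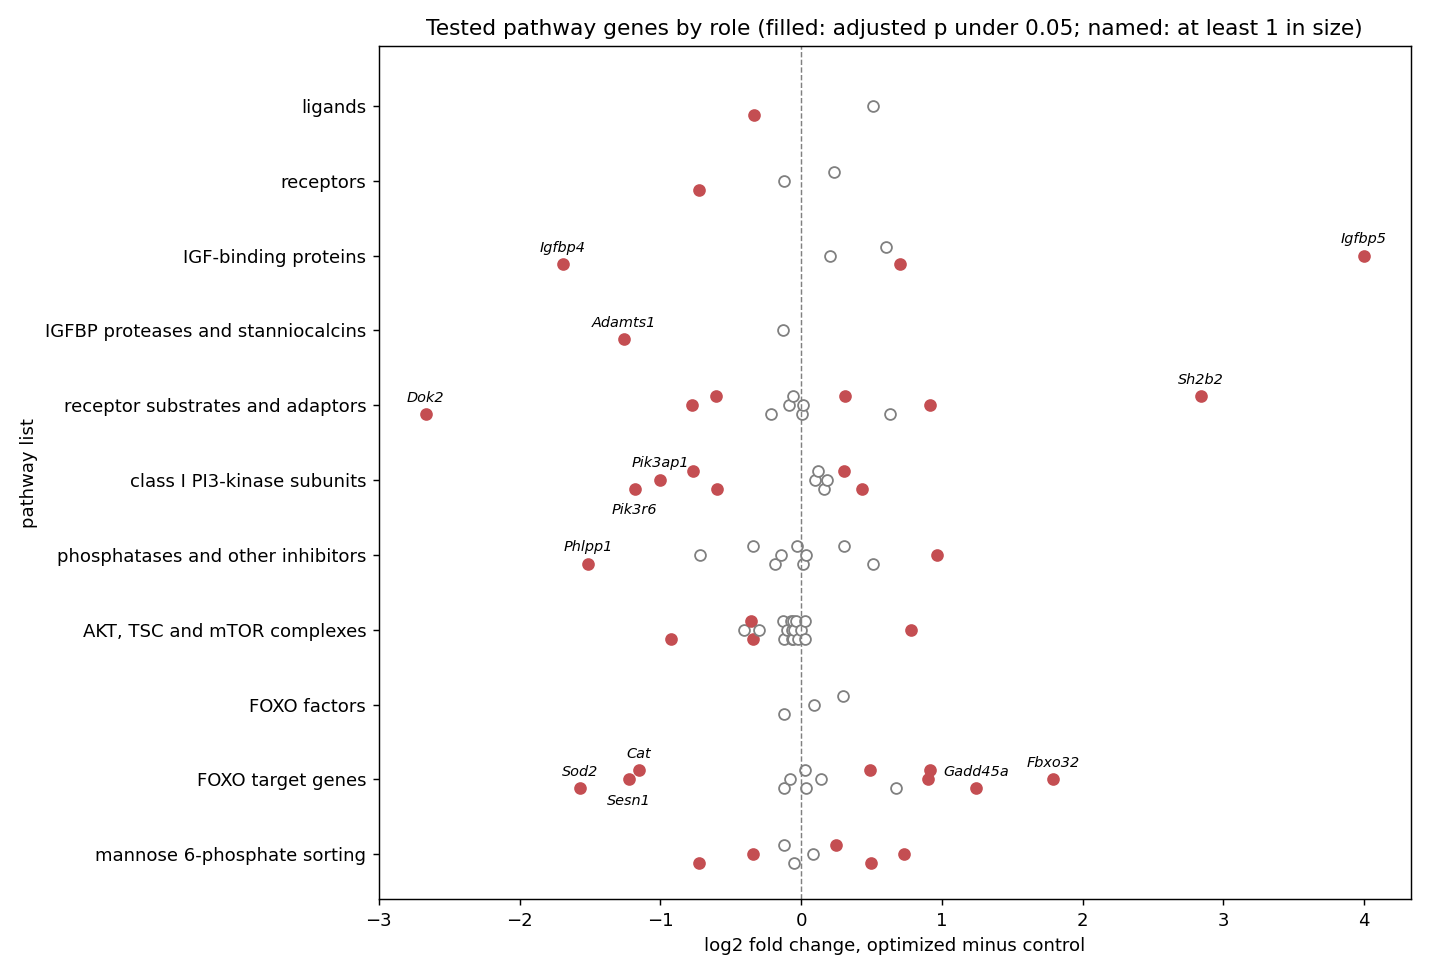
Log2 fold change, optimized minus control, of every tested gene in the 11 pathway lists (rows), with members that belong to 2 lists drawn in both. Red points have an adjusted p under 0.05, and names mark those of at least 1 in size, from Dok2 at -2.67 on the left to Igfbp5, 16.0-fold higher, on the right.

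Over all 11 lists, 35 of 87 pathway genes tested were called, or 40.2%, with 16 higher and 19 lower, against the background of 29.8%. When libraries were scaled by size only, the split was 12 higher and 23 lower, and with limma on log2(FPKM + 1) it was 11 and 23. Without the members, 31 of 77 genes were called.

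By the deposited FPKM values, the order of the members in control was Igf1, Igfbp4, Igf2r, Foxo3, Pik3r1, Insr, Igf1r, Foxo1, Irs2 and Irs1. Neighbours in that order had separate libraries except along the run from Insr to Irs2, where each overlapped the next. In optimized libraries the order was Igf1, Foxo3, Igf2r, Igfbp4, Pik3r1, Irs2, Igf1r, Foxo1, Insr and Irs1. There, neighbours overlapped along the runs from Foxo3 to Pik3r1 and from Irs2 to Insr. Igfbp4 went from 26.4 ± 1.53 to 7.38 ± 0.86 FPKM (SD, n = 3 each) and from the second to the fourth place, while Irs2 moved from the ninth to the sixth. These places rest on the gene lengths the authors used.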

How the data were processed

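Within Galaxy, the authors aligned the read pairs with HISAT2 to the mm39 build (GRCm39) and used featureCounts for counting, as the paper and the submitters' processing notes say. They deposited raw counts per gene and FPKM values. Versions, annotation and strand setting are not given in the sources used here. Every deposited FPKM value with at least 10 counts equalled the count over a gene and a library constant (tolerance 0.001 on the natural log scale), and gene lengths were taken from these constants.

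The count test was run with edgeR 4.0.16 under R 4.3.3 (filterByExpr, TMM, quasi-likelihood test without covariates, Benjamini-Hochberg adjustment over 14618 genes). Standard errors are the absolute log2 fold change over the square root of F. Ratios used exact permutation over the libraries. Coordinates and start regions are those of GENCODE M39. The steps were tested on simulated counts. Libraries of 1 condition differed beyond sampling noise.

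The members, pathway lists and tests were chosen with earlier results of these data known. All members were named, and from each list the genes called whose absolute log2 fold change reached 1, its most abundant gene and those at 0 counts. Other genes were named after their values were seen. Some genes of the lists are not reported here. Alternatives were DESeq2 1.42.0, scaling by relative log expression or by library size alone, other filters, the replicate number as a block, a length trend (spline, 5 degrees of freedom) removed, each library left out, limma 3.58.1 on log2(FPKM + 1) and log2(FPKM + 0.1), and an adjusted p under 0.01.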

Additional observations from a re-analysis of the deposited data

How the results depend on the processing

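Across 18 alternatives the number of members called stayed between 3 and 4 and that of pathway genes between 26 and 39. Igf2r, Irs2 and Igfbp4 kept their direction and an adjusted p under 0.05 in all 18, and Igf1 kept its direction in all 18 and its call in 13, missing it in the 4 fits named above and, at 0.021, with a threshold of 0.01. The log2 fold change of Irs2 was 0.58 with limma on log2(FPKM + 1), and that of Fbxo32 was 1.14, as the pseudocount lowers the change of low genes. Irs1 ran from -0.40 without optimized replicate 1 to 0.049 without optimized replicate 2, and was not tested with a minimum of 10 counts in every library or a mean FPKM of 1. Akt1, at 0.0019 in the reported fit, was at -0.13 with library size alone, -0.019 without a filter, -0.0019 with the replicate block, -0.14 with limma on either pseudocount or with genes under a mean FPKM of 1 left out, and between -0.059 and 0.077 when single libraries were left out. Over all genes, 2873 instead of 4360 were called at an adjusted p under 0.01. Library size alone and limma on log2(FPKM + 1) moved the median of all genes to -0.12 and -0.087, against 0.0079. With library size alone the microglia markers of the control summed to 6686 CPM on average.

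Deviations from the condition means correlated at 0.26, -0.011 and 0.18 between same-numbered libraries of the conditions. Between libraries of different number the correlations ran from -0.28 to 0.17. These values do not settle whether the number is a pairing, and the reported fit did not use it. With the replicate number as a block, 4924 genes, 38 pathway genes and 4 members were called, and 5634, 39 and 4 when the length trend was removed as well. Depth limits Irs1 and the genes too low to test.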

Other observations

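Genes that make or read mannose 6-phosphate, the tag read by IGF2R, or that sort tagged enzymes changed in both directions. Of 8 tested, 3 were higher and 2 lower, or 62.5% called, against 29.8% of all genes tested. Gnptab, a subunit of the enzyme that adds the tag, gave 2959, 3060 and 3270 counts in control cultures, then 4953, 4413 and 4108 under optimized conditions, and its log2 fold change was 0.73 (standard error 0.10). Gnptg, another subunit, was higher with 0.49 and Gga2, a sorting adaptor, with 0.25. Igf2r at -0.73 and the sorting adaptor Gga1 at -0.34 were lower. M6pr, the smaller receptor of the tag and the most abundant gene of the list, went from 393 to 362 CPM, with overlap and a log2 fold change of -0.12. With library size alone M6pr was called, at -0.25.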
